A study of Mus musculus with 3 samples.

Results

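The genes examined here encode the metalloproteases that cut the extracellular matrix and cell-surface proteins, and the inhibitors that hold them in check. They are the matrix metalloproteinases (MMP), the ADAM proteases, the ADAMTS proteases, the ADAMTS-like proteins, the tissue inhibitors of metalloproteinases (TIMP) and Reck. Members were taken by name: every mouse symbol made of Mmp, Adam, Adamts, Adamtsl or Timp and a number with an optional letter, plus Reck. This gave 86 of the 27179 genes in the table: 23 MMP, 34 ADAM, 19 ADAMTS and 5 ADAMTS-like genes and 5 inhibitor genes. The rule used names only, but it was set with earlier results of these data known.

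RNA was sequenced in 3 libraries of 1 group, stromal cells sorted from collagenase-digested epididymal fat of untreated wild-type C57B6 male mice aged 12 weeks. The sort kept live cells with CD140a, Sca1 and podoplanin on their surface and left out cells with CD45, CD31 or Ter119. There was no second genotype, treatment or cell type, so values are compared between genes and between libraries. Fat of 3 mice was used, and since no label ties a library to a mouse, the variation among libraries may partly be technical. The genes of the sorted proteins were abundant: Ly6a stood at 3254 ± 441, Pdgfra at 1484 ± 14.5 and Pdpn at 119 ± 31.9 counts per 1000000 counts of the scaled library (CPM) (mean ± SD, n = 3 libraries throughout). Ptprc, which encodes CD45, had 5.42, 15.8 and 7.68 CPM, and Pecam1, which encodes CD31, had 1, 1 and 2 counts. These are bulk libraries, in which fewer cells with an RNA and less of it per cell cannot be told apart.

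MMP proteins are made as inactive precursors and cleave collagens, gelatins and proteoglycans once a prodomain is removed. ADAM proteins sit in the membrane and shed the outer parts of growth factors, cytokines and receptors, while ADAMTS proteins are secreted and process procollagens and large proteoglycans. TIMP proteins bind the active site of these enzymes, and Reck is a membrane-anchored inhibitor. In fat, this system remodels the matrix around progenitors and growing adipocytes.

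The enzymes share a zinc-binding stretch of 11 residues, in which a histidine and a glutamate are followed by 2 more histidines that hold the metal. A search of the longest complete coding sequence of each gene (GENCODE M21, GRCm38) found it in 23 of 23 MMP, 19 of 19 ADAMTS and 21 of 34 ADAM genes, and in 0 of 5 ADAMTS-like genes. The 33 coding bases are shown for the 3 members of each protease family with the highest level per kilobase. Capitals mark the codons of the 3 histidines and the glutamate.
Mmp2: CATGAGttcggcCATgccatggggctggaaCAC
Mmp3: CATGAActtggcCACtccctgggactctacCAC
Mmp23: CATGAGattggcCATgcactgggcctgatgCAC
Adam9: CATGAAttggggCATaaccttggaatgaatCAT
Adam17: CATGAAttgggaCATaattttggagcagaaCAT
Adam19: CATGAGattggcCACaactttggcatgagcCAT
Adamts1: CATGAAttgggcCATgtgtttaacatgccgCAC
Adamts5: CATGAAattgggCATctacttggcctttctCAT
Adamts2: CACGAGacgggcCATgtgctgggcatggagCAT
Adam22: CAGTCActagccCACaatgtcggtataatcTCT
The last line is the stretch of Adam22 that aligned with that of Adam9. Its capitals are the aligned codons, which encode glutamine, serine, histidine and serine, and it matched the Adam9 stretch at 16 of 33 bases, where Adam17 matched Adam9 at 25. The Mmp2 stretch lies in 1 coding exon at chr8:92839279-92839311 on the plus strand and that of Adam9 at chr8:24990326-24990358 on the minus strand. In Adamts1 and Adamts5, neighbours on chromosome 16, an intron splits it, of 322 and 9779 bases (chr16:85799191-85799545 and chr16:85878015-85887826, both minus strand). An intron of 699 bases also splits it in Adamts2, on chromosome 11, and none splits the MMP and ADAM stretches shown.

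Counted by role, 35 of 86 members (40.7%) were detected, that is, had 1 CPM or more in every library. This share lay close to that of all genes in the table (35.0%) and of protein-coding genes (43.7%), so at this threshold the count is no result about the family. At 20 CPM in every library the share was 27.9% of members, against 17.4% of all genes and 22.3% of protein-coding genes. The median member had a mean of 1.03 CPM, against 0.108 for all genes and 1.90 for protein-coding genes. The roles differed widely. TIMP and Reck genes were detected in 4 of 5 cases, secreted MMP genes in 4 of 16 and membrane-anchored MMP genes in 3 of 7. ADAM genes were grouped by where they are known to be expressed, so their counts may partly restate the grouping. Those classed as widely expressed, which carry the zinc-binding stretch, were detected in 7 of 9, all but Adam8 and Adam28. The neural ADAM genes without it were detected in 2 of 3, and the other ADAM genes, most of them known from male germ cells, in 0 of 22. ADAMTS genes were detected in 11 of 19 (13 without replicate 3, 6 at a threshold of 20 CPM and 7 at 1 CPM per kilobase) and ADAMTS-like genes in 4 of 5.

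**Figure D1:**
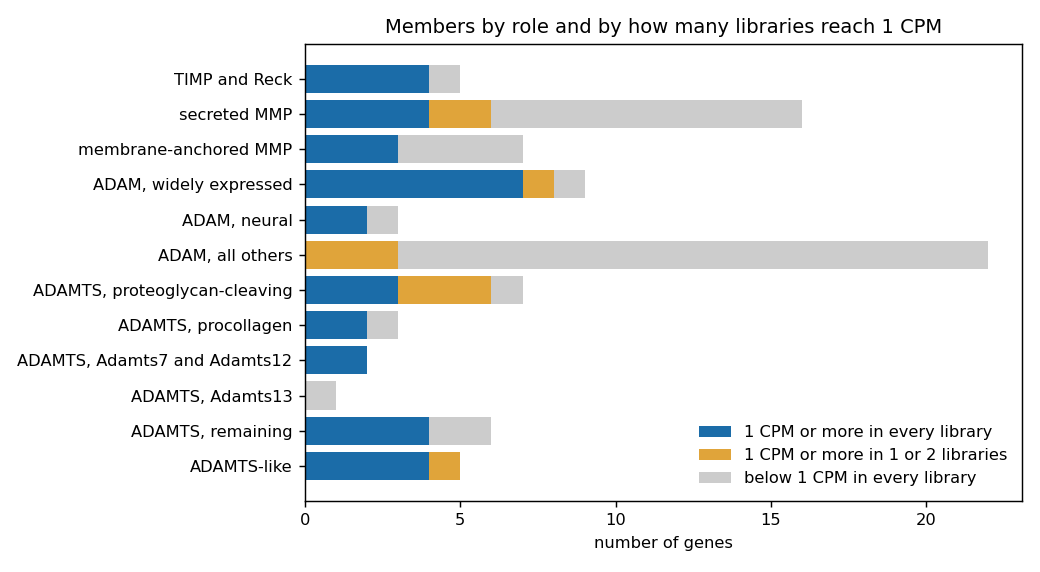
Horizontal bars count the genes of each role (x axis, number of genes), split by whether they reached 1 CPM in every library, in 1 or 2 libraries, or in none. The 22 remaining ADAM genes have no blue segment, and TIMP and Reck have 4 of 5 genes in it.

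Carrying the zinc-binding stretch did not separate detected from undetected genes. It was present in 63 members, of which 25 (39.7%) were detected, and absent from 18 ADAM and ADAMTS-like genes, of which 6 (33.3%) were. Within the ADAM family, 7 of 21 genes with it and 2 of 13 without it were detected. The 2 without it were Adam22 and Adam23, neural surface proteins that act as receptors or ligands. Adam22 had 36.0, 34.5 and 35.1 CPM, so the 3 libraries nearly coincided. Adam23 was lower, at 7.5, 7.17 and 2.07 CPM.

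The inhibitor genes Timp2 and Timp3 had the highest mean levels of all members, both in CPM and per kilobase of exon. Per kilobase, Timp3 lay below Mmp2 and Adamts1 in library 1 (148 against 196 and 156), and its range overlapped theirs. Timp2, which inhibits MMP proteins and helps MMP14 activate MMP2, had 1891, 2304 and 2300.0 CPM. Timp3, the inhibitor that binds to the matrix and also blocks ADAM17 and ADAMTS proteins, had 1202, 1583 and 1817 CPM. Both were lowest in library 1. Timp1, a soluble inhibitor induced by cytokines, was instead highest in library 1, with 106 CPM against 21.0 and 41.5 in the others, a spread of 5.05-fold. Its mean was 56.2 CPM, or 31.3 without replicate 1. Reck had 179, 307 and 264 CPM, and was lowest in library 1 as well. Timp4, the remaining inhibitor gene, was the one not detected, with 1, 0 and 1 counts.

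Per kilobase of exon, Timp2 stood at 556 ± 60.9, Timp3 at 188 ± 38.1, Timp1 at 63.3 ± 50.0 and Reck at 52.3 ± 13.6. The ranges of Timp2 and Timp3 and of Timp3 and Timp1 did not overlap between libraries, while those of Timp1 and Reck did. Timp2 exceeded Timp3 3 times of 3, by a log2 difference of 1.57 ± 0.16 or 2.97-fold (p = 0.25, two-sided exact permutation of signs). That is the smallest p that 3 libraries allow, and it was the p of each of the 7 level differences tested, also after Benjamini-Hochberg adjustment over them, so none could pass 0.05. The log2 difference was 0.45 per kilobase of coding sequence and 0.51 when CPM was not divided by length. The exons of Timp3 span 8.144 kb and those of Timp2 3.896 kb, while the coding sequences measure 0.633 and 0.66 kb. Exons of Syn3, on the opposite strand, cover 21.3% of the exon bases of Timp3, but Syn3 itself had 14 counts in all.

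**Figure D2:**
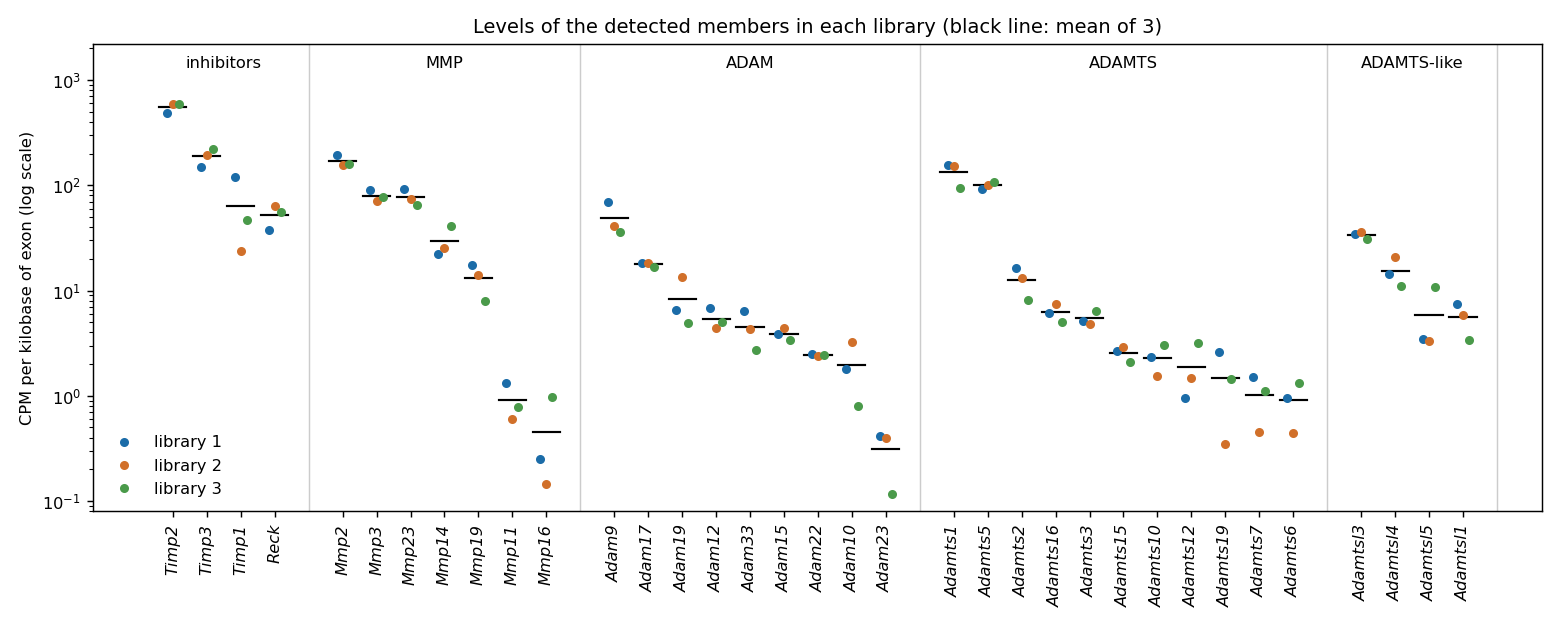
Points give the CPM per kilobase of exon (y axis, log scale) of the 35 detected members in libraries 1, 2 and 3, ordered within each family, with the mean as a black line. Timp2, at 556 on average, lies highest, and the points of Timp1, Mmp16 and Adamts19 are the ones most spread among libraries.

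Among the secreted MMP genes, 4 were detected. Mmp2, the gelatinase that degrades denatured collagen and collagen IV, led with 659.8, 523 and 537 CPM. Mmp3, the stromelysin that cuts proteoglycans and activates other MMP precursors, had 162, 127 and 140.5 CPM. Both were highest in library 1, and their library values lay within 1.28-fold of each other. Mmp19, an MMP of broad substrate range, had 61.3, 49.3 and 27.9 CPM. Mmp11, which is activated inside the cell by furin, had 3.69, 1.66 and 2.18 CPM. The collagenase genes, whose products cut intact fibrillar collagen, were nearly absent from the counts. Mmp13 and Mmp1a had 0 counts in every library, which allows up to 0.0945, 0.119 and 0.107 CPM (3 counts each, counting error only), and Mmp8 and Mmp1b had 1 count each. Mmp1a and Mmp1b are 90.2% identical over 1392 coding bases, so reads that match both are uncertain. The stromelysin gene Mmp10 had 1 count, the matrilysin gene Mmp7 had 3, and Mmp12, Mmp20, Mmp21 and Mmp28 had 4 or fewer in all.

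Mmp9, the second gelatinase, had 6.65 CPM in library 1, from 211 counts, but 1 count in library 2 and 0 in library 3. Per kilobase, Mmp2 exceeded it 3 times of 3, by a log2 difference of 7.65 ± 1.11 (p = 0.25, exact permutation of signs). In library 1, where Mmp9 had enough counts to be measured, the difference was 6.37. In the other libraries it was set by the constant added before taking logs, and the mean ran from 6.90 to 9.24 over the alternatives. Mmp9 is known from neutrophils and macrophages. Of 4 neutrophil markers, 3 had 0 counts everywhere (S100a8, S100a9 and Camp), and the list summed to 0, 0.0793 and 0 CPM. Of 4 macrophage markers 0 were detected, and their sums were 0.945, 2.18 and 0.179 CPM. Lyz2 had 25 counts in library 1 and 0 in the others, C1qa had 1, 0 and 0, Adgre1 had 2, 0 and 1, and Csf1r had 2, 55 and 4. The part of such cells in the Mmp9 counts was not tested.

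The membrane-anchored MMP genes were led by Mmp23 and Mmp14. Mmp23, whose product is held by an amino-terminal anchor, had 215, 173 and 154 CPM. Mmp14, the collagenase of the cell surface and the main activator of MMP2, had 134, 151 and 247 CPM and was highest in library 3. Mmp16, its close relative, had 2.17, 1.27 and 8.43 CPM, a mean of 3.96 that fell to 1.72 without replicate 3. Mmp15 had 0 counts in every library, Mmp24 and Mmp25 had 4 counts and 1 in all, and Mmp17 stayed below 1 CPM everywhere.

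Per kilobase of exon, Mmp2 stood at 170.0 ± 22.4, above Mmp3 at 79.5 ± 9.87 and Mmp23 at 77.1 ± 13.4, with Mmp14 at 29.7 ± 10.2 and Mmp19 at 13.1 ± 4.78. Library ranges overlapped for Mmp3 and Mmp23 and, lower down, for Mmp11 and Mmp16, and for 0 of the other 4 neighbouring pairs. Mmp2 took 46.2%, 45.6% and 45.0% of the summed MMP level, a nearly constant share. It exceeded Mmp14 3 times of 3, by a log2 difference of 2.54 ± 0.59 (p = 0.25, exact permutation of signs), or of 1.55 per kilobase of coding sequence. With coding length, Mmp3 fell from the second to the fourth place among MMP genes, and Mmp2 stayed first.

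The ADAM family was led by Adam9, a sheddase that also binds integrins, with 282, 168 and 148 CPM. Adam17, the enzyme that releases tumour necrosis factor and ligands of the epidermal growth factor receptor, had 131, 129.8 and 121 CPM. Its 3 libraries differed by 1.08-fold, and Adam9 was highest in library 1. Adam19, a metalloprotease that sheds neuregulin, had 46.2, 96.3 and 34.8 CPM and was highest in library 2. Adam12, known from fat and muscle development, had 71.5, 46.6 and 52.8 CPM. Adam33 and Adam15 followed at 24.3 ± 10.01 and 23.7 ± 3.06 CPM.

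Adam10, the sheddase that cuts Notch receptors and cadherins, was the lowest of the detected widely expressed ADAM genes, with 8.79, 16.1 and 3.93 CPM. Per kilobase of exon it lay below Adam17 3 times of 3, with a log2 difference of -3.03 ± 0.72 (p = 0.25, exact permutation of signs). Among the detected genes of its family, Adam10 ranked after Adam22 and before Adam23, and its range overlapped that of Adam22. Adam8, known from leukocytes, had 50, 1 and 2 counts. The part of leukocytes in them was not tested. Adam28 had 6, 1 and 1 counts, and the neural gene Adam11 had 5, 19 and 2.

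Of the 22 remaining ADAM genes, 9 had 0 counts in all libraries and 19 had 3 counts or fewer in each library. The other 3 had their counts almost entirely in 1 library: Adam4 with 65 counts in library 1, Adam1a with 331 in library 2 and Adam5 with 275 in library 3. The epididymis lies against the fat that was taken. Male germ line markers had 0 of 5 genes detected and summed to between 0.555 and 0.630 CPM. Epididymal markers had 0 of 5 detected and summed to 5.64, 7.33 and 0.143 CPM, of which Rnase10 gave 5.51 in library 1 and Lcn8 gave 7.29 in library 2. Their part in the ADAM counts was not tested. Exons of Adam1a are shared over 63.7% of their length with Gm42878 and over 24.0% with Mapkapk5, both on the same strand, and its coding sequence is 99.7% identical to that of Adam1b over 1205 bases, so its count is uncertain. In all, 13 members had a near copy within the family (at least 85% identity over 50% of the shorter coding sequence), and 0 of them were detected.

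ADAMTS transcripts came mostly from a pair of neighbouring genes. Adamts5, the main aggrecan- and versican-cleaving enzyme in mice, had 989, 1097 and 1163 CPM. Adamts1, which also cleaves versican and is induced by inflammatory and hormonal signals, had 828, 802 and 504 CPM. Adamts1 was lowest in library 3, where Adamts5 was highest. Of the summed ADAMTS level per kilobase, Adamts1 took 49.0 ± 7.45% and Adamts5 37.7 ± 7.36%, ahead of Adamts2 with 4.57 ± 1.12%. Which stood first depended on length: Adamts1 led per kilobase of exon (134 ± 33.9 against 100.4 ± 8.15, with overlapping ranges), and Adamts5 led per kilobase of coding sequence and in CPM.

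Other proteoglycan-cleaving members were low or uneven. Adamts15 had 27.6, 30.2 and 21.7 CPM. Adamts4, the other classical aggrecanase, had 129 counts in library 1 (4.06 CPM) and 0 in both others. Per kilobase, Adamts5 exceeded it 3 times of 3, by a log2 difference of 7.18 ± 0.94 (p = 0.25, exact permutation of signs). The difference was 6.10 in library 1, and with Adamts4 at 0 in the others the mean depended on the added constant and ran from 6.37 to 10.015 over the alternatives. Adamts9, which cleaves versican and is needed for cilia, had 3.24, 14.9 and 0.0357 CPM, and Adamts8 had 3.53, 7.53 and 0.214 CPM. Both were highest in library 2 and lowest in library 3. Adamts20 had 2 counts in all.

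The enzymes that trim the amino-terminal propeptide of procollagens were represented by Adamts2, with 154, 122 and 75.8 CPM, and Adamts3, with 28.0, 26.3 and 34.9 CPM. Adamts2 is the main one in skin, and Adamts3 is known to activate the lymphatic growth factor VEGF-C. Adamts14, the remaining one, had 2 counts. Adamts16 had 41.6, 51.1 and 34.3 CPM. Adamts10, which interacts with fibrillin microfibrils, had 19.2, 12.6 and 25.3 CPM. Of the genes whose products cut cartilage oligomeric matrix protein, Adamts12 had 10.5, 15.97 and 34.8 CPM and Adamts7 had 9.42, 2.85 and 7.0. Adamts12 was highest in library 3, and Adamts7 was lowest in library 2. Adamts19 was the most spread detected ADAMTS gene, with 36.8, 4.87 and 20.4 CPM, a range of 7.55-fold, and its mean of 20.7 moved to 12.7 without replicate 1 and to 28.6 without replicate 2. Adamts6 had 7.43, 3.45 and 10.4 CPM. Adamts13, the von Willebrand factor protease made mainly in the liver, had 1 count, Adamts17 had 4 and Adamts18 had 0.

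ADAMTS-like proteins resemble the ancillary part of ADAMTS enzymes without the protease domain, and several bind fibrillin microfibrils. Adamtsl3 led with 265, 279.7 and 237 CPM, a range of 1.18-fold. Adamtsl1 had 94.9, 75.0 and 43.6 CPM, and Adamtsl4, which promotes fibrillin deposition, had 60.7, 87.3 and 45.9 CPM. Adamtsl5 had 16.5 and 15.7 CPM in libraries 1 and 2 and 51.6 in library 3, and its mean of 27.9 was 16.1 without replicate 3. Adamtsl2, whose product binds a TGF-beta binding protein, had 0, 0 and 223 counts. Per kilobase, Adamtsl3 at 33.7 ± 2.81 and Adamtsl4 at 15.4 ± 4.995 did not overlap, while Adamtsl5 and Adamtsl1 did.

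Summed over each family, the TIMP genes outweighed the MMP genes. Timp1 to Timp4 together had 752, 809 and 860.3 CPM per kilobase of exon, against 423, 339.7 and 354 for the 23 MMP genes. The log2 difference was 1.12 ± 0.25, or 2.17-fold, and held 3 times of 3 (p = 0.25, exact permutation of signs). It was 1.73 without division by length and 3.09 per kilobase of coding sequence, so the direction held and the size depended on the length used. ADAMTS genes summed to 288, 288 and 235 CPM per kilobase. They lay below the MMP genes 3 times of 3, with a log2 difference of -0.46 ± 0.19 (p = 0.25, exact permutation of signs), but above them by 0.89 in undivided CPM and by 0.0803 per kilobase of coding sequence. That order is therefore not fixed by these data. ADAM genes summed to 95.3 ± 20.5 and ADAMTS-like genes to 60.9 ± 4.74.

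**Figure D3:**
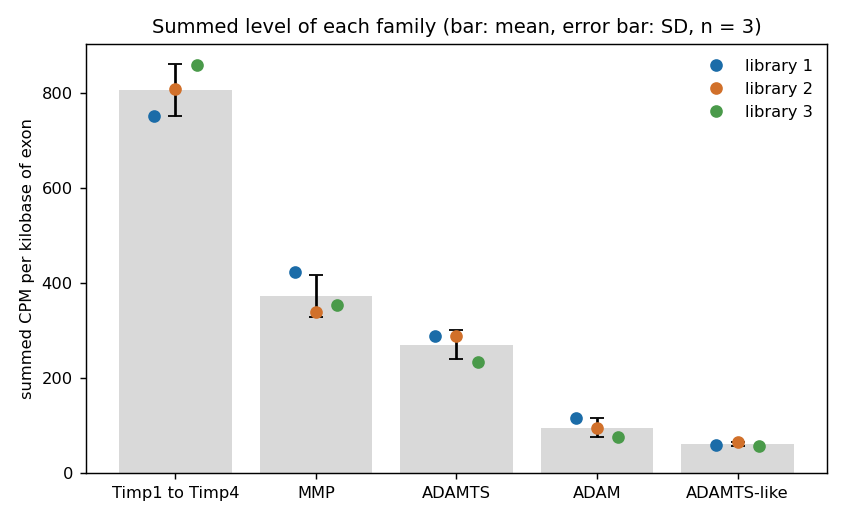
Bars give the mean summed CPM per kilobase of exon (y axis, from 0) of each family, with SD over n = 3 libraries and a point for each library. The 3 points of Timp1 to Timp4, from 752 to 860.3, lie above all points of the MMP genes.

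Some members that lie side by side on a chromosome differed sharply in level. With gaps of at most 1000 kb, 39 members fell into 12 groups of neighbours, and 6 of the 39 were detected. Over all members it was 35 of 86 (40.7%), and over all genes 35.0%. The same count was not made for neighbouring genes outside the family, so it is only a description. In 7 groups no member was detected, in 4 a detected member lay beside undetected ones, and in 1 both members were detected. The largest holds 10 MMP genes within 427 kb of chromosome 9 (chr9:7272514-7699585, GRCm38). Mmp3 was the 1 detected gene in it. Mmp27 followed with 153, 7 and 5 counts, and the other 8 had 4 counts or fewer in all. A group of 5 ADAM genes on chromosome 8 (chr8:24602246-25017040) held Adam9 at its end, with 8965, 4243 and 4157 counts. Next to it, Adam32 had 3 counts, Adam5 had 0, 2 and 275, and Adam3 and Adam18 had 0. The group with both members detected was the pair of Adamts1 and Adamts5 on chromosome 16 (chr16:85793827-85901125).

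**Figure D4:**
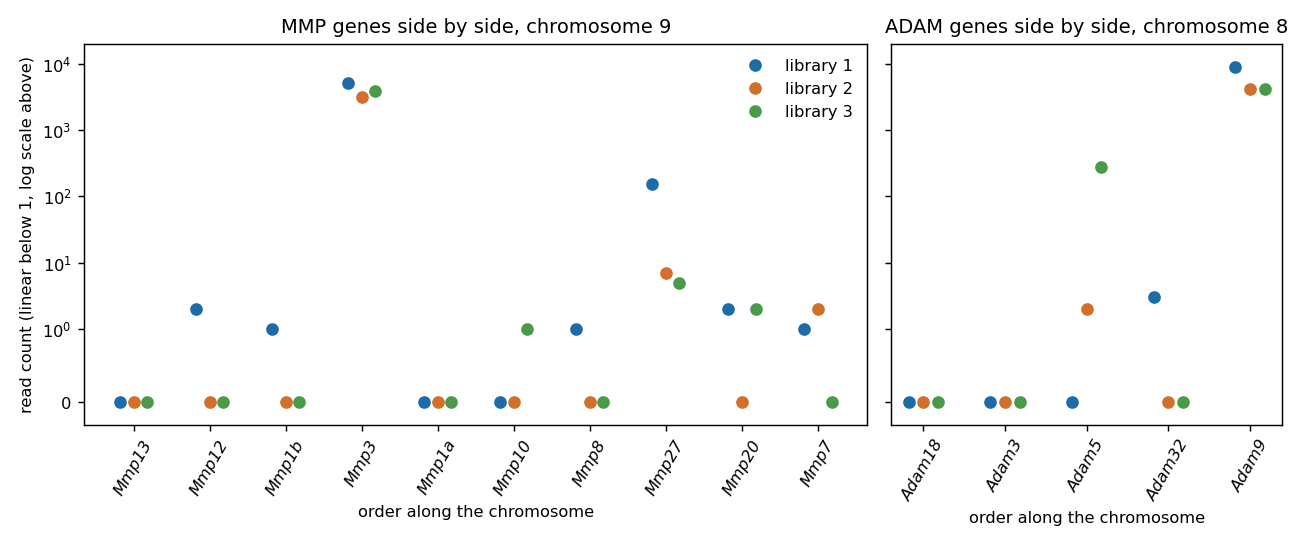
Read counts (y axis, linear below 1 and log above) of 10 neighbouring MMP genes and 5 neighbouring ADAM genes in chromosomal order, with a point for each library. Mmp3 and Adam9 have at least 3203 and 4157 counts in every library, while most of their neighbours lie at 4 counts or fewer.

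A further 10 members (11.6%) reached 1 CPM in 1 or 2 libraries but not in all, a share close to that of all genes (11.3%) and of protein-coding genes (11.9%). Of these, 8 reached it in 1 library (9.30% of members, against 6.24% of all genes and 6.29% of protein-coding genes): Adam4, Adam8, Adamts4, Mmp27 and Mmp9 in library 1, Adam1a in library 2, and Adam5 and Adamtsl2 in library 3. In each of the 8, that library held at least 92.7% of the gene's counts. The way the 8 were chosen partly fixes this share, and it was not set beside that of other genes. Of the 14 members with a mean from 1 to 10 CPM, 6 (42.9%) had a library at 3 counts or fewer, against 36.4% of all 3884 genes at that level, so uneven counts were common at this level throughout the table. At 10 to 100 CPM it was 0 of 16 members and 0.711% of all genes. For the 8 members with most of their counts in 1 library, the mean therefore describes no single library.

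**Figure D5:**
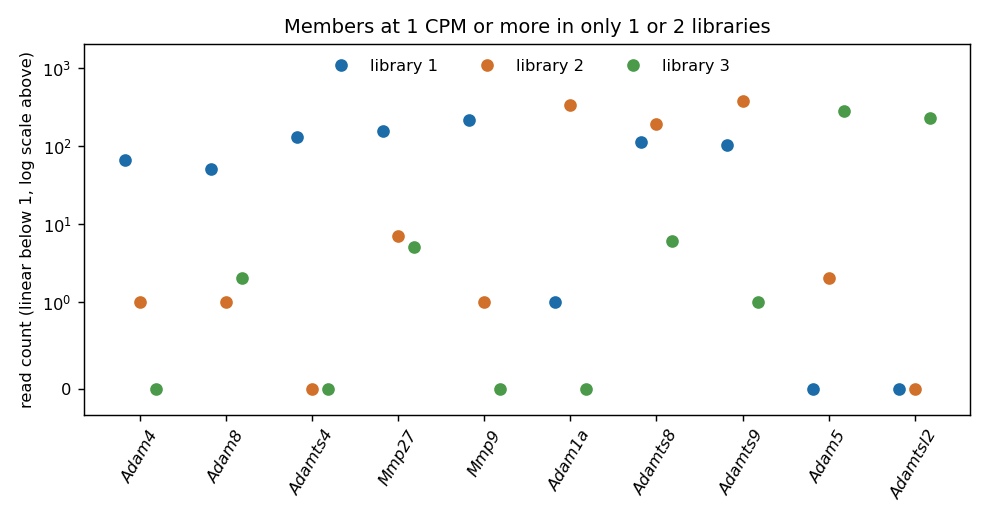
Read counts (y axis, linear below 1 and log above) of the 10 members that reached 1 CPM in 1 or 2 libraries, with a point for each library. Adamts4 and Mmp9 have 129 and 211 counts in library 1 and at most 1 in the others, and Adamtsl2 has 223 in library 3 and 0 in the others.

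Spread between libraries followed the level of the gene. The median coefficient of variation of members was 114% at 1 to 10 CPM, 34.8% at 10 to 100, 21.4% at 100 to 1000 and 11.0% above 1000, against 87.3%, 36.1%, 18.6% and 12.0% of all genes. When each library was set against the other 2, edgeR's quasi-likelihood test called 0 of 47 members tested and 0 of 13289 genes (0.00%) in each of the 3 contrasts at an adjusted p of 0.05. Genes with 10 counts in only 1 library were among those tested. Mmp9 and Adamtsl2, for example, entered only through the library where they were high, so such contrasts cannot support a difference. Timp1 was not called, but was higher in library 1 by 1.76 on the log2 scale (edgeR). Mmp14 was higher in library 3 by 0.80, and Adamts1 was lower there (log2 difference -0.69, adjusted p = 0.89 for both, edgeR). DESeq2 called 0, 1 and 1 members, where it called 0.948%, 1.50% and 1.48% of genes. These were Adam1a, higher in library 2 (log2 difference 9.62), and Adamts9, lower in library 3 (log2 difference -7.99). Both had a library at 1 count or fewer. Adam1a, whose count is uncertain, had 10 counts or more in library 2 alone, so it was tested only through the library where it was high. In each contrast the single library has no spread of its own, so these tests describe the libraries and show no difference between conditions.

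Genes that act with these proteases were counted by role. Over the whole table, 35.0% of all genes and 43.7% of protein-coding genes were detected. All 4 listed convertases, which can remove the prodomains of some of these proteases, were detected. Pcsk6 had 311, 423 and 502 CPM and Pcsk5 had 379.8, 341 and 254. Furin and Pcsk7 were lower, at 13.8 ± 2.69 and 10.6 ± 2.26. Of 9 partners of ADAM10 and ADAM17, 3 were detected (33.3%), close to the share of all genes and so no result about them. Rhbdf1, which carries ADAM17 to the surface, had 49.0 ± 15.9 CPM. The tetraspanin genes Tspan5 and Tspan14, partners of ADAM10, had 30.9 ± 12.4 and 12.6 ± 3.59. Tspan17, with 663, 1 and 88 counts, fell short of detection in library 2. Rhbdf2, the other carrier of ADAM17, had 1, 0 and 182 counts. Lrp1, the receptor that takes up TIMP and MMP proteins, had 455, 615 and 529.7 CPM. Bsg, which induces MMP genes in neighbouring cells, had 247, 153 and 186. The broad protease inhibitor gene A2m had 10 counts in all.

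Of 12 substrate genes, 7 were detected (58.3%, against 35.0% of all genes and 43.7% of protein-coding genes). The fibrillar collagen genes Col3a1, Col1a1 and Col1a2 had 9756 ± 2021, 549.9 ± 49.4 and 413 ± 94.1 CPM, and the fibronectin gene Fn1 had 4603 ± 631. Among the large proteoglycans that ADAMTS enzymes cut, versican (Vcan) had 410.1, 356 and 203 CPM, while Acan, Bcan and Ncan, which encode the proteoglycans of cartilage and brain, had 5, 1 and 7 counts in all. Notch2 and Notch1, receptors cut by ADAM10, had 104 ± 37.1 and 22.0 ± 18.8 CPM. Tnf, the substrate that named ADAM17, had 0, 10 and 0 counts.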

How the data were processed

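The authors deposited 1 table of raw read counts, with a row for each NCBI gene ID. Per the submitters' processing notes, CASAVA 1.8.2 and STAR 2.3.0 were used with the build mm10. How reads were counted, with which annotation and strand setting, was not given in the sources used here. Levels are therefore uncertain where exons overlap another gene, as in 20 members, 7 of them detected. Tmem198b, with 0 counts, covers 22.3% of the exon bases of Mmp19, and 4731419I09Rik, not matched to a count, covers 20.55% of those of Adam15. Iah1, at 99.7 CPM, covers 4.35% of Adam17, and Tbc1d2b, at 90.4 CPM, covers 1.94% of Adamts7. Per the protocols in the labels, the kit was a SMARTer low-input one, and molecular identifiers are not mentioned.

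For symbols and coordinates, 25275 of 27179 IDs matched RefSeq's GRCm38.p6 table. The 3 libraries held 32813373, 25060096 and 27275888 counts. CPM used TMM library sizes (edgeR 4.0.16, R 4.3.3). Exon unions and coding sequences came from GENCODE M21, and all 86 members had both. Levels of different genes were compared as CPM per kilobase of exon, with log2 differences after adding 0.5 and an exact permutation of signs over the 3 libraries. The quasi-likelihood test of edgeR compared each library with the other 2 on 13289 genes with 10 counts or more in at least 1 library, adjusted by Benjamini-Hochberg over all of them. It was tested on simulated data, whose outcome is not given here, and takes the single library to be as variable as the rest. The absence of calls therefore does not show how large a difference it could miss. DESeq2 1.42.0 was an alternative. Members with near copies were found with BLAST 2.17.0, and the stretch of Adam22 was placed by a protein alignment in Biopython 1.88.

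The members and lists were chosen with earlier results of these data known. Full values are given for the detected members with the highest mean CPM in each role, for the TIMP genes and Reck, and for Mmp9, Mmp13, Mmp14, Adam10, Adam17, Adamts4 and Adamts5. Further genes were named after their values were seen, where a count turned on them.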

Additional observations from a re-analysis of the deposited data

How the results depend on the processing

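The count of 35 detected members was 35 at 0.5 CPM, 28 at 5 CPM, 24 at 20 CPM and 27 at 1 CPM per kilobase of exon, 35 with DESeq2 size factors or plain totals, and 35 to 37 when a library was left out. The shares of members, all genes and protein-coding genes were 40.7%, 36.6% and 45.4% at 0.5 CPM, and 32.6%, 28.3% and 35.9% at 5 CPM. At 20 CPM they were 27.9%, 17.4% and 22.3%. Of the 7 level differences, 6 kept their direction under every alternative run. The difference of ADAMTS minus MMP turned from -0.46 to 0.89 without division by length and to 0.0803 per kilobase of coding sequence, an alternative chosen after seeing the data. Coding lengths from a RefSeq protein table, as first planned, were not run. When a library was left out, TIMP minus MMP ran from 1.04 to 1.27, ADAMTS minus MMP from -0.57 to -0.40, Timp2 minus Timp3 from 1.50 to 1.66, Mmp2 minus Mmp14 from 2.26 to 2.85, Adam10 minus Adam17 from -3.39 to -2.67, Mmp2 minus Mmp9 from 7.31 to 8.28 and Adamts5 minus Adamts4 from 6.89 to 7.72. The highest value for Mmp2 minus Mmp9, without replicate 1, is over 1.5 times the main one on the linear scale.

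The 0 calls of edgeR over all genes became 16, 16 and 36 for libraries 1, 2 and 3 with no filter on low counts, 0, 8 and 2 with 10 counts in every library, and 126, 199 and 197 with DESeq2. Members called stayed at 0, except 1 with DESeq2 in library 2 and 1 in library 3. The cause was not tested. Leaving out a library would leave 1 against 1, so it was not run for this test. Means of 6 of the 35 detected members moved by over 1.5 times without 1 library, namely Adam10 (6.36 to 12.4 CPM), Adamts12 (13.2 to 25.4), Adamts19, Adamtsl5, Mmp16 and Timp1. No paired analysis was possible because there was 1 group. Genes below a few CPM rest on too few counts to be ordered.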
